A study of Mus musculus with 36 samples.

Results

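Chromatin accessibility was examined at the genes of 10 enzymes of glycolysis: Gpi1, Pfkl, Pfkp, Aldoa, Tpi1, Gapdh, Pgam1, Eno1, Pkm and Ldha. All DNase hypersensitive sites (DHS) that overlapped one of these genes, extended by 5 kb on each side, were taken (GENCODE vM21 gene models, mm10). The DHS were taken by position alone, but the genes were chosen with earlier results of these data known. It gave 32 of the 52788 DHS of the table, of which 16 lay within 1000 bp of a transcription start site (TSS) of the gene itself (promoter DHS) and 16 did not (other DHS). Every gene had at least 1 promoter DHS. Aldoa is annotated as 2 adjoining gene records, which were read as 1 gene.

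DNase-seq, in which short fragments released from open chromatin by the nuclease DNase I are sequenced, was carried out with the pre-B cell line B3 of the mouse, in 36 libraries. The Ikaros line carries a retroviral vector with the transcription factor Ikaros fused to an oestrogen receptor domain that keeps it out of the nucleus until 4-hydroxytamoxifen is added, and the control line carries the empty vector. Both lines were given the drug at 0.5 µM and collected at 0, 2, 6, 12, 18 and 24 h, with 3 replicates (numbered 4, 5 and 6, in batches 11, 12 and 13) in each of the 12 groups. The labels name the drug for all libraries, whereas the methods of the study state that 0 h cells received none and were collected apart from the others. Each group thus combines B3 cells, 1 of the 2 vectors and 1 time, and both lines are transduced populations of a single cell line. Values are log2 RPKM (reads per DHS length and library size) after scaling and a noise correction by the authors, so levels are per length. Whether levels of narrow and broad DHS are comparable on this scale was not tested. Depth behind single values is unknown, and the number of libraries limits the precision.

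Some properties of the whole table bear on all values below. Promoter DHS were found for the pre-B markers Cd79a, Cd79b, Pax5, Ebf1, Vpreb1, Igll1, Blnk, Rag1 and Il7r, and also for some markers of other cell types, among them Lck (T cells) and Lyz2 (myeloid cells). At 0 h the 13657 promoter DHS of the table were together higher in the Ikaros line, by a median of 0.34, and from 0 h to 24 h that difference changed by a median of -0.42, against 0.12 for all DHS. The 12 group means span only 6 of 11 possible dimensions after the authors' correction, so that groups are not fully independent and replicate spread does not describe the whole error of a mean. The replicate SD, pooled over the 32 DHS, was 0.33 to 0.46 in the control groups and 0.40 in the Ikaros group of 0 h, but 0.20 to 0.27 in the other Ikaros groups.

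Glycolysis converts glucose to pyruvate in the cytosol. In its investment phase sugar phosphates are rearranged and phosphorylated at the expense of ATP, in its payoff phase the resulting trioses are oxidised and ATP is made, and lactate dehydrogenase then turns pyruvate into lactate and regenerates NAD+. Dividing B cell progenitors use glucose heavily, and Ikaros is known as a factor that arrests their growth. Lower accessibility of glycolytic genes was described by the study from these same libraries, so the direction of the values below is not independent evidence of it.

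The sequences at the promoters on which the results turn are shown first. These are the 250 bases before a RefSeq TSS (GRCm38.p6, which is mm10) for Aldoa, Pgam1, Eno1 and both promoter DHS of Ldha, all inside the respective DHS and free of annotated exons, and the whole narrow DHS before Gapdh. All are written 5′ to 3′ in the direction of the gene. Capitals mark matches, on either strand, to 4 short motifs: TGGGAA (Ikaros core), CACGTG (E-box), ACGTG (the core of hypoxia response elements, which is contained in the E-box) and GGGCGG (GC box).
Aldoa, chr7:126799255-126799504, minus strand: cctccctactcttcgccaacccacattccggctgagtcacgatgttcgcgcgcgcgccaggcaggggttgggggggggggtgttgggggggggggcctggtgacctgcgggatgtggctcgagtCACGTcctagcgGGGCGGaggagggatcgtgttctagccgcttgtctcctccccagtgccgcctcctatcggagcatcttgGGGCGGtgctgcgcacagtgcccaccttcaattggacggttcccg
Gapdh, chr6:125166531-125166661, minus strand: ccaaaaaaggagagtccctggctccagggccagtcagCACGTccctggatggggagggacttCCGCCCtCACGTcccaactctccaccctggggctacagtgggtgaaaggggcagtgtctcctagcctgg
Pgam1, chr19:41911621-41911870, plus strand: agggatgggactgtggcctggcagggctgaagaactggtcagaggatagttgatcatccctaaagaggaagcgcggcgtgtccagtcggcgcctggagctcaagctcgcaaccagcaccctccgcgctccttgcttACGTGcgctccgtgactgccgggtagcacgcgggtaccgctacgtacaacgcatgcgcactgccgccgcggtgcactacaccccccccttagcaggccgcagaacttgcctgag
Eno1, chr4:150236458-150236707, plus strand: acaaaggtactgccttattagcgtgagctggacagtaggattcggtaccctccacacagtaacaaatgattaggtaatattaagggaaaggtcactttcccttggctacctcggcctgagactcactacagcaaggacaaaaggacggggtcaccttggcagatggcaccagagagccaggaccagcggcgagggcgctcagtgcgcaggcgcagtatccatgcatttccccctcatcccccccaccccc
Ldha upstream TSS, chr7:46845554-46845803, plus strand: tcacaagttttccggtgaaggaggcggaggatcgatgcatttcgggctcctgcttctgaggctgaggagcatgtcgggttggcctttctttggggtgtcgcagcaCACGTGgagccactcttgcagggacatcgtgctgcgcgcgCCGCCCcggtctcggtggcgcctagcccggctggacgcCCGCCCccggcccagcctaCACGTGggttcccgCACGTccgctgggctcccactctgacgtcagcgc
Ldha downstream TSS, chr7:46846832-46847081, plus strand: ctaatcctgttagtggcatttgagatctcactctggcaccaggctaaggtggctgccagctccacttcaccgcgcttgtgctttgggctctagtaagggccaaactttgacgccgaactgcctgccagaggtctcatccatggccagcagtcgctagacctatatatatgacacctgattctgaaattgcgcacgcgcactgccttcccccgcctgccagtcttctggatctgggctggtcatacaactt

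The upstream Ldha window held 2 E-boxes, starting at positions 106 and 203 of the printed bases, besides 2 GC boxes and 1 further ACGTG core. The downstream Ldha window and the Eno1 window held none of the 4 motifs. Aldoa had 1 ACGTG core and 2 GC boxes, Pgam1 had 1 ACGTG core, and the narrow Gapdh DHS had 2 ACGTG cores with 1 GC box between them. TGGGAA was in none of the 6 sequences. Over all RefSeq promoter windows of the same 250 bases (32851 windows), TGGGAA was found in 21.6%, CACGTG in 6.02%, ACGTG in 16.6% and GGGCGG in 32.7%. Of the 16 windows of the 10 genes, 3 (of 2 genes) held TGGGAA, 1 held CACGTG, 5 (of 4 genes) held ACGTG and 9 (of 7 genes) held GGGCGG. Those with TGGGAA were not printed. They are overlapping windows before further Eno1 starts (chr4:150236947-150237196 and chr4:150236974-150237223), inside the same DHS and with GC boxes. The other is a Gapdh window (chr6:125165774-125166023) in the broad promoter DHS of that gene. These are matches of letters. They do not show binding, and a missing match does not show its absence. At the Ldha promoter the study reported an Ikaros footprint from DNase-seq and an Ikaros peak from chromatin immunoprecipitation.

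The promoter DHS were open in all groups but at unequal levels. The highest mean over the 36 libraries was 5.82 log2 RPKM at the Pkm promoter (chr9:59656112-59656632, centred +4 bp from the TSS), which exceeded 95.9% of all promoter DHS. Pgam1 followed with 5.68 (chr19:41911552-41912076) and the main Aldoa promoter with 5.53 (chr7:126799000-126799553). The lowest were the second Aldoa promoter, which serves the longer transcripts, with 3.77 (chr7:126808978-126809478) and a DHS before an internal Tpi1 start with 4.08 (chr6:124813349-124813849). The median level of the 16 was 4.74, against 4.57 for all promoter DHS. Their median GC content was 62.9% against 59.0%, and their median replicate SD was 0.24 against 0.26.

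**Figure D1:**
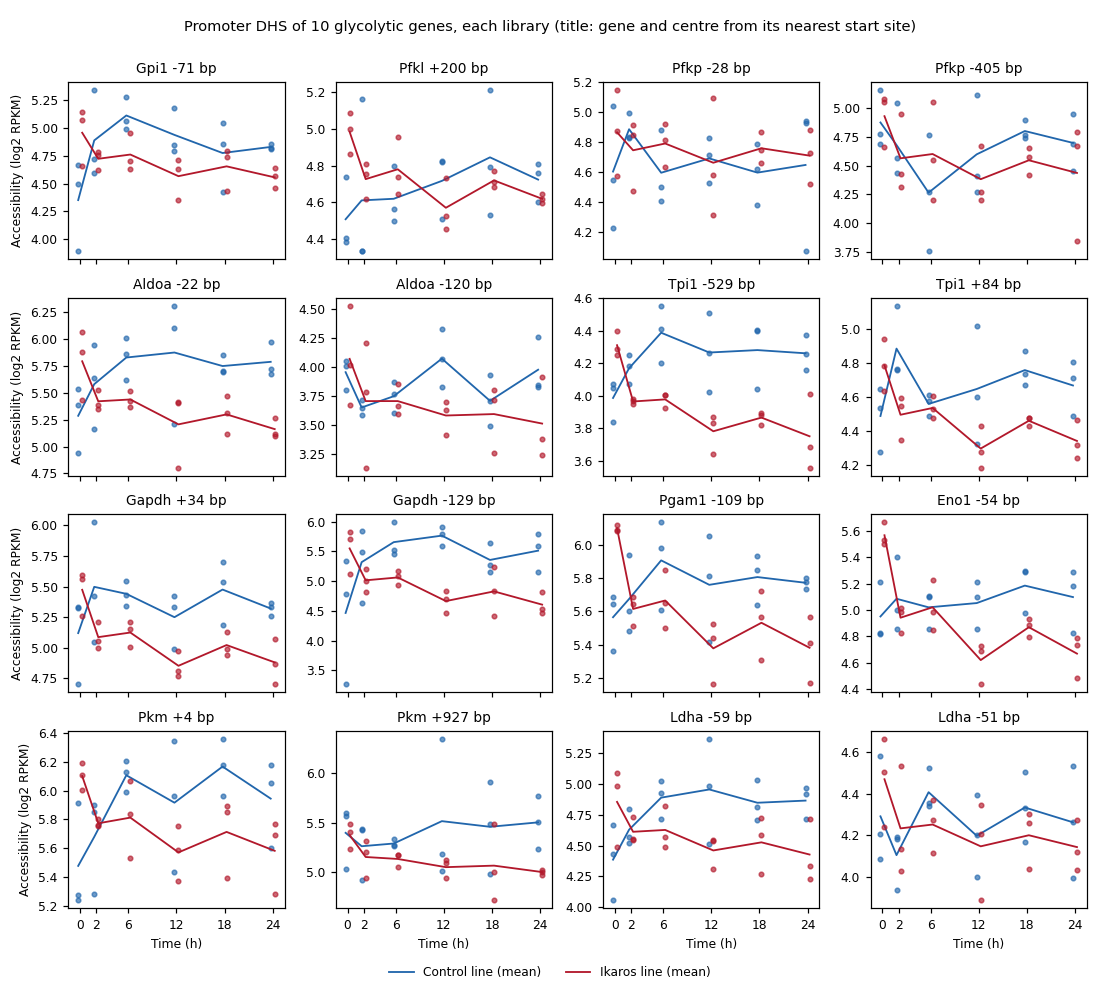
Accessibility (log2 RPKM) of the 16 promoter DHS against time in hours. Points are single libraries of the Ikaros line (red) and the control line (blue), lines join group means, and panel titles give the gene and the distance of the DHS centre from the nearest TSS of that gene. In most panels the Ikaros line starts above the control line at 0 h and lies below it from 12 h on, while the Pfkp -28 bp panel does not show this order.

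At 0 h, the start of the course, 15 of the 16 promoter DHS were higher in the Ikaros line, by a median of 0.41. Of all 13657 promoter DHS, 10508 were higher. By limma with Benjamini-Hochberg adjustment over all DHS, 6 of the 32 members differed, all higher in the Ikaros line, against 12.9% of all DHS and 26.0% of all promoter DHS called at that time. Of these, 5 were promoter DHS, of Gpi1, Gapdh, Pgam1, Eno1 and Pkm, and the remaining one, near Aldoa, is a promoter DHS of the neighbouring gene Ppp4c. Values did not overlap between the lines at 9 of the 32 DHS, 6 higher and 3 lower in the Ikaros line, against 23.6% of all DHS. The median over all promoters was of similar size (0.34). Without replicate 6 of the control line at 0 h, none of the 6 calls held. When the trends of each library with level, width and GC content were removed the median fell to -0.07, and no call was left.

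The median difference was negative at the later times. Its values over the 16 promoter DHS were -0.13, -0.20, -0.39, -0.31 and -0.41 for the 5 times from 2 h to 24 h. Respectively 12, 12, 16, 15 and 15 of the 16 were lower in the Ikaros line, and 9 were lower at every one of these 5 times. Of all promoter DHS, 52.9%, 40.6%, 66.2%, 54.1% and 56.8% were lower at the same times. At 2 h the direction turned with quantile normalization (median 0.04, 5 of 16 lower) and without replicate 4 (0.04). With trends in level, width and GC content removed, the median was -0.15 at 12 h and -0.22 at 24 h, with 13 of 16 lower at both times. The medians of all promoter DHS at the same times were -0.02, 0.08, -0.11, -0.03 and -0.05. No member passed limma's adjusted threshold of 0.05 at 2, 6, 12, 18 or 24 h, where 0.195%, 0.578%, 1.31%, 0.699% and 1.33% of all DHS were called. At an unadjusted p under 0.05 the counts were 3, 3, 9, 6 and 11 of 32, against 10%, 13.8%, 15.8%, 13.1% and 14.7% of all DHS. The lowest adjusted p of a promoter member was 0.0812 at 12 h (Gapdh) and 0.0977 at 24 h (Tpi1). With a spread estimated per group, a setting added after the data were seen, 1 member was called at 12 h and 3 were at 24 h, against 2.05% and 6.12% of all DHS in the same fit.

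Ikaros and control values were fully separated at 5, 9, 8, 13 and 14 of the 32 DHS for the same 5 times in order. The corresponding shares of all DHS were 13.6%, 22%, 22.7%, 23.2% and 25.5%. All separated members were lower in the Ikaros line except 1 at 18 h. At 24 h, 9 of the 16 promoter DHS were separated and lower, whereas 15.0% of all promoter DHS were.

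**Figure D2:**
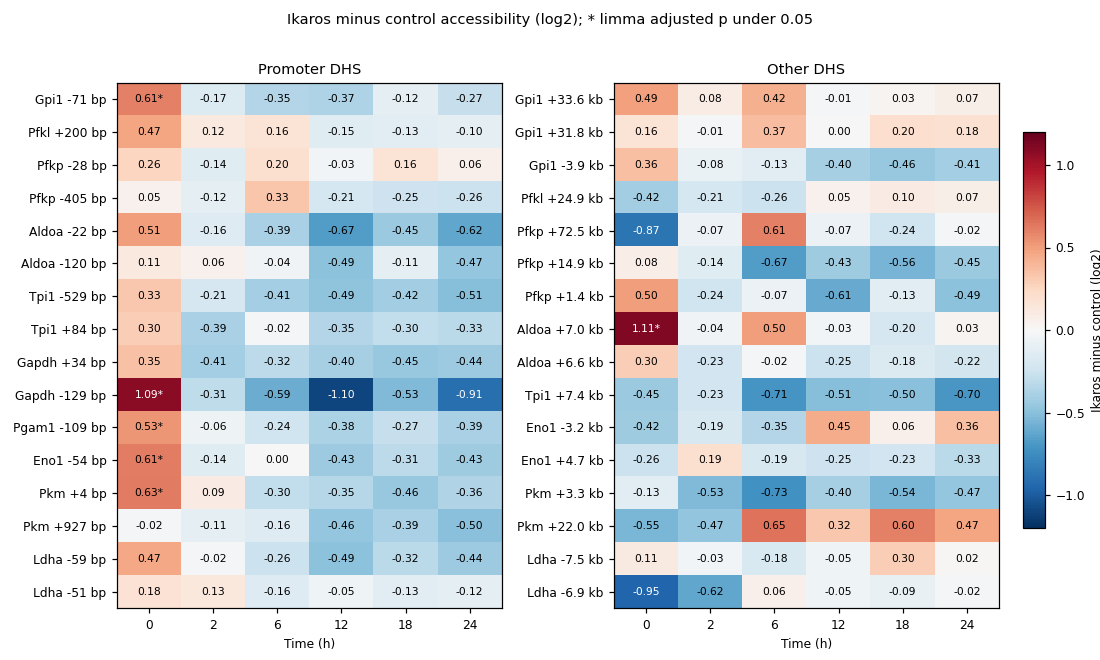
Ikaros minus control difference in accessibility (log2) at each time in hours for the 16 promoter DHS and the 16 other DHS, with the value in each cell and red for higher and blue for lower in the Ikaros line. The promoter column at 0 h is red but for 1 value of -0.02, the columns at 12, 18 and 24 h are blue but for Pfkp -28 bp at 18 and 24 h, and the 6 values with an asterisk are all at 0 h.

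The change of the line difference from 0 h to 24 h was negative at 16 of 16 promoter DHS, and at 77.6% of all promoter DHS. Its median was -0.81, against -0.42 over all promoter DHS. This change uses the same 0 h and 24 h libraries as the 2 single comparisons and does not add independent evidence to them. It passed limma's adjusted threshold at 7 of 32 members, all promoter DHS and all lower, against 6.26% of all DHS and 10.6% of all promoter DHS. The 7 belong to Aldoa, Tpi1, Gapdh, Pgam1, Eno1, Pkm and Ldha, thus to every gene of the set but Gpi1, Pfkl and Pfkp. Measured from 2 h instead, the median change was -0.30 and 14 of 16 promoter DHS were lower, against 57.7% of all promoter DHS. No member passed (0 of 32 also at an unadjusted p under 0.05). That comparison had 0% of all DHS called by limma, and 1503 (2.85%) had an unadjusted p under 0.05, a share below 0.05 itself.

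None of the 7 calls held when trends with level, width and GC content were removed, where the median change of the 16 promoters was -0.21 and 14 of 16 were lower, or when only the 4 groups of the comparison were fitted, which leaves the changes as they are and raises the lowest adjusted p to 0.0623. Without replicate 6 of the control line at 0 h, 3 of the 32 were called, against 1.97% of all DHS. With the replicate number as a block (the number marks a batch in the labels) 5 of the 7 held by limma (4.81% of all DHS were called), and those of Pkm (adjusted p = 0.0563) and Ldha (adjusted p = 0.0585) did not.

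**Figure D3:**
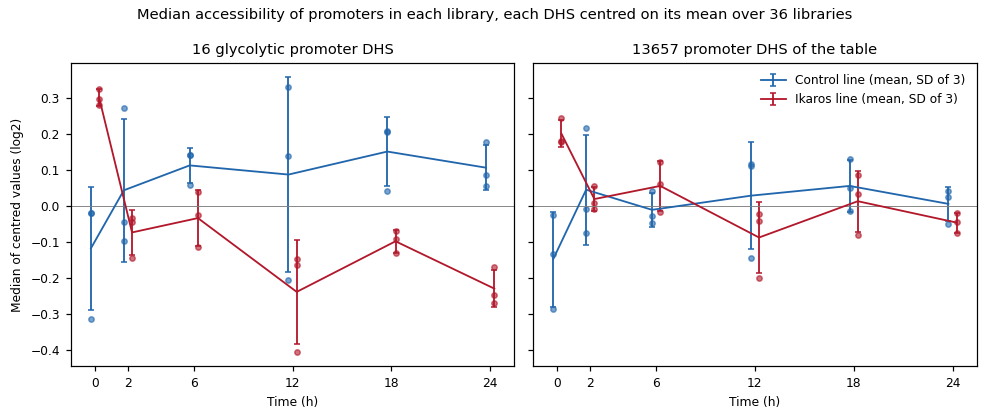
Median over the 16 glycolytic promoter DHS (left) and over all 13657 promoter DHS (right) in each library against time in hours, after each DHS was centred on its mean over the 36 libraries (log2). Points are libraries, lines and bars are the mean and SD of 3 replicates, red is the Ikaros line and blue the control line. In the Ikaros line the glycolytic median goes from 0.30 at 0 h to -0.23 at 24 h and the median of all promoters from 0.20 to -0.05.

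In the investment phase, Gpi1 (glucose-6-phosphate isomerase) had a single promoter DHS (chr7:34230157-34230657), which also lies in the overlapping genes Gm12762 and Gm26762. At 0 h its 3 control replicates had 4.67, 4.49 and 3.89 and its Ikaros replicates 4.66, 5.14 and 5.07 log2 RPKM. The ranges of the lines overlapped slightly, and the difference of 0.61 ± 0.20 (SE) passed (limma, adjusted p = 0.0400). At 24 h the control line stood at 4.83 ± 0.02 (SD, n = 3) and the Ikaros line at 4.56 ± 0.09. Its change from 0 h to 24 h of -0.88 ± 0.28 did not pass (limma, adjusted p = 0.0527). The control line itself was lowest at 0 h, with 4.35 ± 0.41, and highest at 6 h, with 5.11 ± 0.15.

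The committed step is catalysed by phosphofructokinase, encoded by Pfkl (liver type) and Pfkp (platelet type). The Pfkl promoter DHS (chr10:78009119-78010096) was at 4.98 ± 0.11 in the Ikaros line and 4.51 ± 0.20 in the control line at 0 h, a difference of 0.47 ± 0.18 that did not pass (limma, adjusted p = 0.0770). From 2 h to 24 h its differences lay between -0.15 and 0.16. Pfkp had 2 promoter DHS (chr13:6648540-6649070, -28 bp, and chr13:6649117-6649247, -405 bp). The Pfkp -28 bp DHS was at 4.71 ± 0.18 in the Ikaros and 4.65 ± 0.50 in the control line at 24 h and was the only promoter member not lower at 18 h and 24 h. The Pfkp -405 bp DHS had a difference of -0.26 ± 0.26 at 24 h. Neither Pfkl nor Pfkp had a DHS past the threshold in any comparison. Whether their change differs from that of the other genes was not tested.

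Aldoa (aldolase A) splits fructose-1,6-bisphosphate into 2 trioses, and it had 2 promoter DHS of unequal level. At the main promoter (-22 bp) control values at 0 h were 5.53, 5.38 and 4.94, and Ikaros values 6.07, 5.43 and 5.87. At 24 h control values were 5.72, 5.67 and 5.97 and Ikaros values 5.27, 5.10 and 5.12. The lines overlapped at 0 h and were apart at 24 h, where the control line was above by all its replicates. The difference went from 0.51 ± 0.22 to -0.62 ± 0.22, a change of -1.13 ± 0.31 (limma, adjusted p = 0.0311). At the weaker promoter (-120 bp) the change was -0.58 ± 0.35 and did not pass (limma, adjusted p = 0.294).

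Tpi1 (triose-phosphate isomerase) interconverts the trioses. At its -529 bp DHS, which lies before an internal start, control replicates at 24 h had 4.26, 4.37 and 4.16 and Ikaros replicates 3.56, 4.01 and 3.68. All Ikaros values were below all control values there, while at 0 h all 3 (4.25, 4.40 and 4.29) were above those of the control line (3.84, 4.05 and 4.07). The change was -0.84 ± 0.22 (limma, adjusted p = 0.0283). This DHS had the lowest difference of a single time with respect to its error at 24 h, -0.51 ± 0.16 (limma, adjusted p = 0.0977). The second Tpi1 promoter DHS (+84 bp, chr6:124813938-124814487) went from 0.30 ± 0.15 to -0.33 ± 0.15, a change of -0.62 ± 0.22 that did not pass (limma, adjusted p = 0.0752).

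In the payoff phase, Gapdh (glyceraldehyde-3-phosphate dehydrogenase) oxidises the triose and had the largest differences of the promoter members. They were at the narrow DHS of 130 bp printed above (-129 bp). Control values at 0 h were 5.33, 4.79 and 3.27, and Ikaros values were 5.12, 5.71 and 5.83. Control replicate 6 was thus far below the other libraries of the whole course. At 12 h control values were 5.60, 5.79 and 5.91 against 4.46, 4.83 and 4.71 in the Ikaros line, and at 24 h they were 5.16, 5.59 and 5.80 against 4.47, 4.53 and 4.82. The lines were apart at 12 h and 24 h and overlapped at 0 h. The 0 h difference of 1.09 ± 0.33 passed (limma, adjusted p = 0.0270), and those of the later times, -1.10 ± 0.33 and -0.91 ± 0.33, did not. Its change from 0 h to 24 h was -1.99 ± 0.46 (limma, adjusted p = 0.0151), and without trends in level, width and GC content it was still -1.64 (adjusted p = 0.0631). The broad Gapdh promoter DHS (+34 bp, chr6:125165418-125166060) was lower in the Ikaros line at each time from 2 h on, with differences between -0.45 and -0.32, and its change of -0.79 ± 0.26 did not pass (limma, adjusted p = 0.0613).

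Pgam1 (phosphoglycerate mutase) had its promoter DHS as the only member. At 0 h Ikaros replicates had 6.12, 6.09 and 6.08 and control replicates 5.64, 5.69 and 5.36. At 24 h Ikaros replicates had 5.57, 5.41 and 5.17 and control replicates 5.80, 5.74 and 5.78. The lines were apart at both times and in opposite order. The 0 h difference of 0.53 ± 0.16 passed (limma, adjusted p = 0.0281), the one of -0.39 ± 0.16 at 24 h did not, and the change was -0.92 ± 0.23 (limma, adjusted p = 0.0205).

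Eno1 (enolase 1) makes phosphoenolpyruvate, and its promoter DHS (chr4:150236396-150237399) passed more tests than any other member. All of the tests it passed use the Ikaros libraries of 0 h, so they do not add independent evidence to one another. Ikaros values were 5.53, 5.50 and 5.66 at 0 h, 4.83, 4.98 and 5.01 at 2 h, and 4.73, 4.79 and 4.49 at 24 h. Control values were 4.82, 5.21 and 4.82 at 0 h, 5.40, 4.85 and 5.00 at 2 h, and 5.18, 4.83 and 5.29 at 24 h. The Ikaros line was above the control line in all replicates at 0 h, overlapped it at 2 h and was below it at 24 h. The lines differed by 0.61 ± 0.16 at the start (limma, adjusted p = 0.0111) and by -0.43 ± 0.16 at the end, a change of -1.04 ± 0.22 (limma, adjusted p = 0.0114). With trends in level, width and GC content removed the 0 h difference was -0.07 and the change was -0.19.

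In limma's F-tests over all times, only Eno1 passed the adjusted threshold for a line difference that varied with time (adjusted p = 0.0445). That is 1 of 32 members, against 1.1% of all DHS. An unadjusted p under 0.05 in the same F-test was found at 10 of the 16 promoter DHS, against 3000 of all 13657. In the Ikaros line alone, Eno1 (adjusted p = 0.00669) and Pgam1 (adjusted p = 0.0496) changed over time, which is 2 of 32 members against 2.29% of all DHS. In the control line no member did by limma, against 0.148% of all DHS, and 3 of 32 had an unadjusted p under 0.05, against 12.6% of all DHS. With the replicate block, the limma adjusted p of the Eno1 interaction was 0.0702 and that of Pgam1 over time was 0.0773. The Ikaros line had its highest group mean of the whole course at 0 h for both genes, and its lowest at 12 h (Eno1, 4.62 ± 0.16; Pgam1, 5.38 ± 0.19).

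Pkm (pyruvate kinase of muscle and proliferating cells) forms pyruvate. At its main promoter (+4 bp) control values at 0 h were 5.92, 5.24 and 5.28 and Ikaros values 6.01, 6.11 and 6.19, and at 24 h control values were 6.06, 5.60 and 6.18 and Ikaros values 5.69, 5.77 and 5.28. The lines were apart at 0 h and overlapped at 24 h. The 0 h difference was 0.63 ± 0.21 (limma, adjusted p = 0.0491, and 0.0581 with the replicate block), the 24 h difference was -0.36 ± 0.21, and there was a change of -0.99 ± 0.30 (limma, adjusted p = 0.0459). The narrow DHS inside the gene at +927 bp (chr9:59657435-59657565) was the only promoter member not higher at 0 h, with -0.02 ± 0.25, and had -0.50 ± 0.25 at 24 h (limma, adjusted p = 0.344).

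Ldha encodes the A subunit of lactate dehydrogenase, and it had 2 promoter DHS. At the upstream one, with the E-boxes (-59 bp, chr7:46845511-46846049), control values were 4.43, 4.67 and 4.06 at 0 h and 4.92, 4.71 and 4.96 at 24 h. Ikaros values were 4.98, 4.49 and 5.08 at 0 h and 4.33, 4.23 and 4.72 at 24 h. The lines overlapped at both times, at 24 h by a single Ikaros replicate. The difference went from 0.47 ± 0.19 to -0.44 ± 0.19, a change of -0.90 ± 0.28 (limma, adjusted p = 0.0464). At the downstream one (-51 bp, chr7:46846781-46847281) all 12 group means lay between 4.10 and 4.47, and the change was -0.30 ± 0.26 (limma, adjusted p = 0.487). Whether the 2 promoters differ in their change was not tested.

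**Figure D4:**
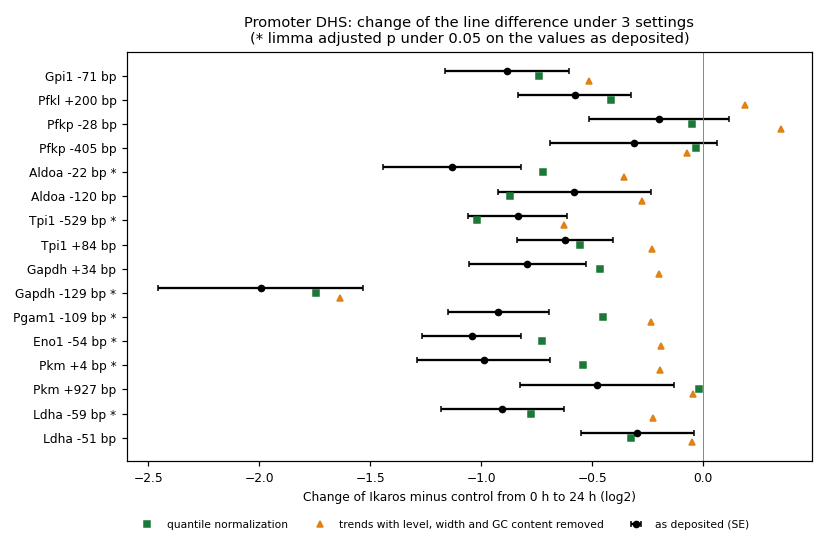
Change between 0 h and 24 h in the line difference (Ikaros minus control, log2) for the 16 promoter DHS. Black circles with SE bars are the values as deposited, green squares those after quantile normalization and orange triangles those after removal of trends with level, width and GC content, and an asterisk marks the 7 calls. Gapdh -129 bp is farthest from 0 under each setting (-1.99 as deposited, -1.74 and -1.64), and after removal of trends the Pfkl and Pfkp -28 bp values are above 0.

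Each step was taken as the mean of its promoter DHS in each library. All 9 steps of the set were higher in the Ikaros line at 0 h and lower at 12, 18 and 24 h. The hexokinase and phosphoglycerate kinase steps have no gene in the set. The phosphofructokinase step is here Pfkl and Pfkp alone. Pfkm, which encodes the muscle type, is not in the set, and its promoter DHS had -0.39 and 0.03 at 24 h. At 24 h the difference was largest for Gapdh (-0.67) and Aldoa (-0.54), followed by Pkm (-0.43), Eno1 (-0.43), Tpi1 (-0.42), Pgam1 (-0.39), Ldha (-0.28) and Gpi1 (-0.27), and it was smallest for the phosphofructokinase step (-0.10). At 6 h that step had a difference of 0.23, with overlapping libraries (4.25 to 4.65 in the control line and 4.61 to 4.87 in the Ikaros line), Eno1 was at 0.00 and the other steps were below 0. With standard errors of 0.15 to 0.33 at single DHS, neighbours in this order are not distinguishable.

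The 16 other DHS did not share the order of the promoters. At 0 h, 8 were higher and 8 lower in the Ikaros line (median -0.03), and at 24 h, 7 were higher and 9 lower (median -0.02). A single one passed a threshold, the Ppp4c DHS next to Aldoa (chr7:126792147-126792233), and only at 0 h. Its control values were 4.92, 5.43 and 4.19 and its Ikaros values 6.38, 6.31 and 5.18, which overlapped, with a difference of 1.11 ± 0.37 (limma, adjusted p = 0.0432). From 2 h on its differences lay between -0.20 and 0.50. The wider Ppp4c DHS beside it (chr7:126792296-126792858) had the lowest replicate SD of the other DHS, 0.16, and went from 0.30 ± 0.14 to -0.22 ± 0.14.

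Among the remaining DHS, the largest difference at 24 h was at an intergenic DHS behind Tpi1 (chr6:124805647-124805777), with -0.70 ± 0.28, and it was lower in the Ikaros line at all 6 times. An intronic Pkm DHS (chr9:59659668-59660168) was also lower at all 6 times, most at 6 h, with -0.73 ± 0.22 (limma, adjusted p = 0.122). A second intronic Pkm DHS (chr9:59678457-59678593) was the weakest member, with a mean of 3.49, and had 0.47 ± 0.42 at 24 h. In Pfkp, the intronic DHS at chr13:6647026-6647529 went from 0.50 ± 0.22 to -0.49 ± 0.22, and its change of -0.99 ± 0.31 was the nearest to a call among other DHS (limma, adjusted p = 0.0520). Near Gpi1 the strongest was a promoter DHS of Gm12758 and Gm12762 (chr7:34233903-34234490), with a mean of 5.68 and -0.41 ± 0.20 at 24 h. In Eno1 an intronic DHS (chr4:150240038-150240548) was higher by 0.36 ± 0.28 and a DHS at an exon (chr4:150247953-150248462) lower, with -0.33 ± 0.25, at 24 h. The 2 intergenic DHS before Ldha (chr7:46838207-46838392 and chr7:46838900-46839061) differed by 0.02 and -0.02 at 24 h, and the second had -0.95 ± 0.34 at 0 h (limma, adjusted p = 0.0633). The Pfkl neighbour, in an exon of 1810043G02Rik (chr10:77984616-77985131), had -0.42 ± 0.22 at 0 h and 0.07 ± 0.22 at 24 h.

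**Figure D5:**
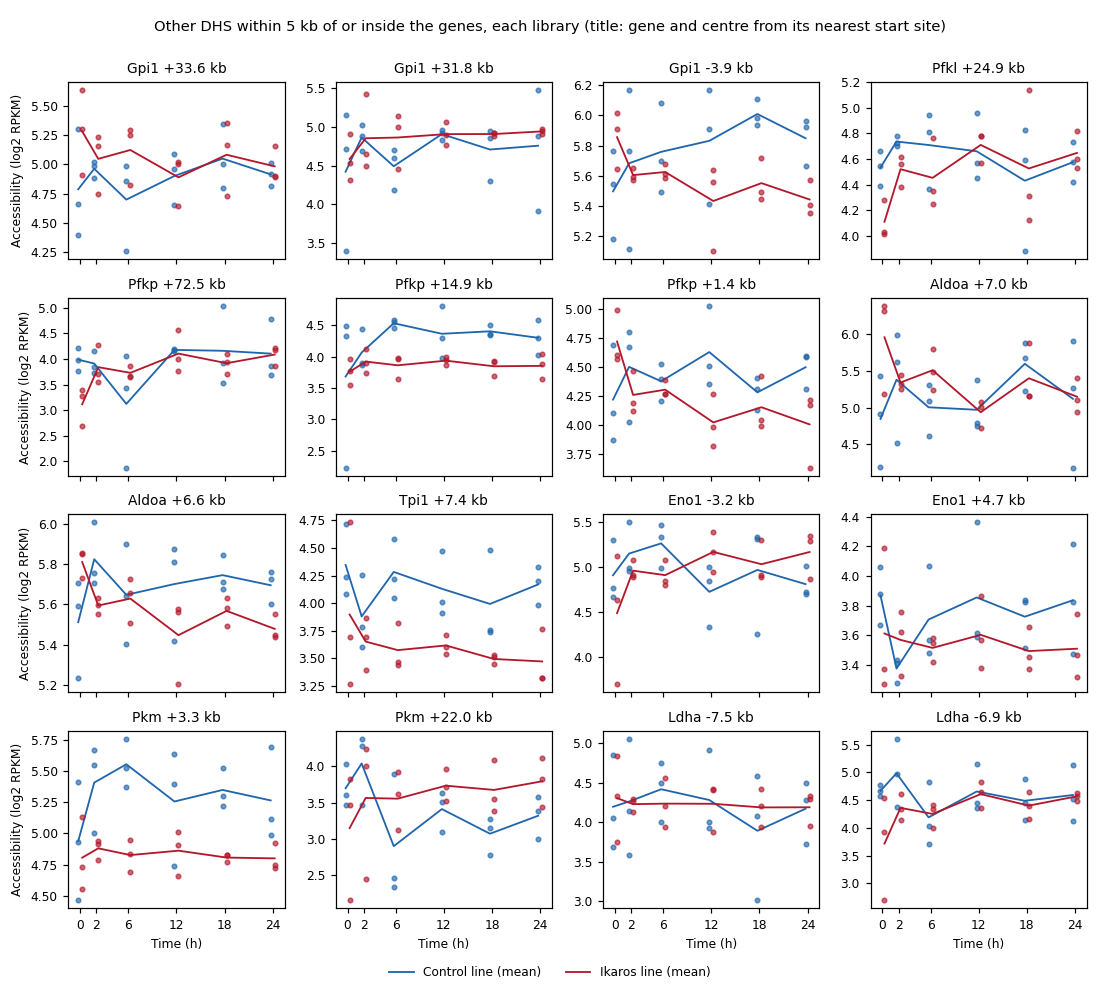
Accessibility (log2 RPKM) of the 16 other DHS against time in hours, drawn as for the promoters with points for single libraries of the Ikaros line (red) and the control line (blue) and lines for group means. Panel titles give the gene and the distance of the DHS centre from its nearest TSS. Only Tpi1 +7.4 kb and Pkm +3.3 kb have the Ikaros mean below the control mean at all 6 times, and several panels, such as Pkm +22.0 kb, have a replicate spread as large as any difference.

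Across the 36 libraries the 16 promoter DHS tended to move together. The Pearson correlation of a pair was 0.40 in the median over 120 pairs and above 0 in 116, from -0.16 (Pfkp -28 bp and Pkm +927 bp) to 0.87 (Pgam1 and Eno1). The points share libraries, groups and the authors' correction. With the median of the 16, the correlation was 0.31 in the median over all promoter DHS. Over the 16, which are part of that median, it was 0.71. These are not correlations of pairs, and a pair value for all promoter DHS was not computed. Among the promoter DHS outside the set whose profiles were most like the median of the 16 were those of Mir8102 and Pip4k2b (r = 0.90), Atxn2l (r = 0.90), Suz12 (r = 0.90) and Fads2 (r = 0.89).

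Other genes of the pathway were read from a list of 25 genes, of which 19 had a DHS by the same rule and 10 a promoter DHS, giving 47 DHS with 13 promoter DHS. Their promoters had a median difference of 0.24 at 0 h and -0.15 at 24 h. At 0 h 8 of the 47 were called by limma, 5 higher and 3 lower, against 12.9% of all DHS. No DHS of the list was called from 2 h to 24 h, and the change from 0 h to 24 h was called at 3, all lower, a share near the 6.26% of all DHS. The clearest was a promoter DHS of Pfkm, the muscle phosphofructokinase (chr15:98093124-98093693). It had 0.54 at 0 h, -0.39 at 24 h and a change of -0.92 (limma, adjusted p = 0.0114). It also passed the interaction test (limma, adjusted p = 0.0412) and the test of change in the Ikaros line (limma, adjusted p = 0.0124), which called 1 and 2 of the 47 respectively, against 1.1% and 2.29% of all DHS. Another promoter DHS of Pfkm (chr15:98108186-98108692) changed by -0.29 from 0 h to 24 h and did not pass (limma, adjusted p = 0.518).

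Further calls of the list were as follows. A promoter DHS of Hk1, a hexokinase (chr10:62339947-62340522), changed by -0.91 from 0 h to 24 h (limma, adjusted p = 0.0264). The promoter DHS of Hk1 beside it (chr10:62340559-62340689) changed by -0.42 and did not pass (limma, adjusted p = 0.508). A DHS near Pfkfb3, which makes the activator fructose-2,6-bisphosphate (chr2:11552454-11552961), changed by -0.74 (limma, adjusted p = 0.0480) and was the other one to change over time in the Ikaros line (limma, adjusted p = 0.0458). At 0 h the higher ones, besides Pfkm, were the promoter of Pfkfb2 (0.58) and DHS near Aldoc (0.70), Eno3 (1.37) and Pfkfb1 (0.84), and the lower ones included DHS near Hk1 (-0.83) and Hk2 (-0.77).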

How the data were processed

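Deposited values were log2 read densities of 52788 DHS in 36 libraries. Per the labels and methods, the authors mapped reads to mm10 with Bowtie2, called peaks with HOMER, merged them, counted reads with bedtools, scaled by RPKM and TMM, and removed noise with ARSyN. The base of the logarithm was read from the values: base 2 gives 369487 to 432755 RPM in DHS per library, base e over a whole library. Library medians were 3.90 to 4.11. Whether starts count from 0 or 1 is not stated in the sources used here.

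Differences were fitted with limma 3.58.1 in R 4.3.3 (12 group means, all 36 libraries, eBayes with intensity trend). Tests were two-sided, with Benjamini-Hochberg adjustment over all DHS and a threshold of 0.05. The fit was tested on simulated data with independent noise of equal spread in all groups. That simulation does not cover the unequal spread and the dependence of the groups here. Replicates are biological per the series text. The replicate number marks a batch in the labels and so pairs the libraries; residuals of same-numbered libraries of both lines correlated between -0.18 and 0.18 (median -0.02, 18 pairs). Named were all promoter DHS of the genes, any other member DHS past a threshold, and per gene the other DHS of highest level and of largest difference at 24 h. The genes, lists and tests were chosen with earlier results of these data known. Alternatives were the replicate block, quantile normalization, removal of trends, no intensity trend, a filter on low values, fits of only the groups compared, leaving out libraries and, added after seeing the data, a spread per group. Some markers, neighbouring genes and pathway genes are not reported here.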

Additional observations from a re-analysis of the deposited data

Results flagged for a closer look

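The Ikaros minus control difference changed between 0 h and 24 h, by the test of that change (limma, adjusted p under the threshold), at 7 promoter DHS. The changes on the log2 scale were -1.99 at Gapdh (chr6:125166531-125166661), -1.13 at Aldoa (chr7:126799000-126799553), -1.04 at Eno1 (chr4:150236396-150237399), -0.99 at Pkm (chr9:59656112-59656632), -0.92 at Pgam1 (chr19:41911552-41912076), -0.90 at Ldha (chr7:46845511-46846049) and -0.84 at Tpi1 (chr6:124813349-124813849). Of all DHS, 6.26% changed by the same test, and of all promoter DHS 10.6% did. The 0 h cells, which per the methods of the study were collected apart from the others, enter all 7 values, and the part of that in the change was not tested. The part of the shift of all promoters between the lines at 0 h was not tested either. Groups of 3 replicates are too small for a search for single outlying libraries.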

How the results depend on the processing

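The number of the 32 DHS called is given for each setting that moved it. The share of all DHS called moved with the setting too. For the change from 0 h to 24 h it was 6.26%, with the replicate block 4.81%, and without control replicate 6 of 0 h 1.97%. At 24 h it was 1.33%, and 6.12% with a spread per group. Shares are not given for every setting, so a moved count, here or on leaving out libraries, is not to be read as particular to these DHS. At 0 h 6 were called, and 0 with quantile normalization, with trends removed, with a spread per group and when only both 0 h groups were fitted, and 3 with no intensity trend. At 24 h 0 were called, and 1 with quantile normalization, 3 with a spread per group and 1 when only both 24 h groups were fitted. At 12 h a spread per group gave 1 for 0. The change from 0 h to 24 h was called at 7, and at 3 with quantile normalization, 0 with trends removed, 4 with a spread per group, 5 with no intensity trend, 9 with the DHS of lowest level left out and 0 with only its groups fitted. The interaction, called at 1, was called at 0 with the replicate block, quantile normalization, trends removed, no intensity trend or a spread per group. Change over time in Ikaros cells, called at 2, was called at 1 with the replicate block, quantile normalization, no intensity trend or a spread per group, at 0 with trends removed and at 4 with only its groups fitted. The replicate block moved the 0 h count to 5 and that of the change to 5 and no other call than those named.

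Leaving out libraries, the counts ranged from 0 to 8 at 0 h (0 without control replicate 6), from 0 to 9 for the change (0 without replicate 6 in all groups), from 0 to 4 for the interaction, from 0 to 2 over time in Ikaros cells, from 0 to 1 over time in control cells and from 0 to 1 at 12 h. With trends removed the Eno1 difference at 0 h reversed, to -0.0728. The median of the promoters at 2 h reversed with quantile normalization (0.04) and without replicate 4 (0.04), and that at 0 h with trends removed (-0.07); at 12 h it was -0.15 with trends removed, and at 24 h it was -0.22 with trends removed and -0.32 with quantile normalization. By single calls, those of the change held in 18 of 22 alternatives for Eno1 and for Gapdh, 15 for Pgam1, 11 for Aldoa and for Tpi1, 5 for Ldha and 3 for Pkm. Of 16 alternatives, those at 0 h held in 9 for Eno1, 7 for Gapdh, 6 for Gpi1, 5 for Pgam1 and for the Ppp4c DHS, and 3 for Pkm. The Eno1 interaction held in 12 of 45, and change over time in Ikaros cells in 23 of 28 for Eno1 and 4 of 28 for Pgam1. The causes were not tested. Counts were not analysed here, so depth sets a limit that cannot be stated.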
